A study of Mus musculus with 28 samples.

Results

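The genes described are the hormone Fgf23, its co-receptor klotho (Kl), the FGF receptors Fgfr1, Fgfr2, Fgfr3 and Fgfr4, the phosphate importers Slc20a1 and Slc20a2, and the phosphate exporter Xpr1. These 9 genes were taken by name from the 45513 genes of the raw count table. RNA sequencing was done on total RNA from ventricular myocardium of 28 male adult C57BL/6 mice, 1 library per mouse. All mice ate a diet with 1% hydroxyproline, a precursor of oxalate, and 0.5% calcium. At 6 weeks of age they underwent 5/6 nephrectomy, a surgical model of chronic kidney disease (CKD), or a sham operation. On day 7 they were gavaged with 200 µl of medium, either with the oxalate-degrading gut bacterium Oxalobacter formigenes (Oxf) or alone (vehicle). By these 2 factors there were 10 sham-vehicle mice, 6 CKD-vehicle mice, 5 sham-Oxf mice and 7 CKD-Oxf mice. The design describes 10 mice per group, and the other mice were not analysed here. Both operations and both gavages were given on the same diet, so no group lacked the oxalate precursor.

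FGF23 is a hormone made mainly by bone cells that lowers blood phosphate through the kidney, where klotho joins an FGF receptor to form its high-affinity receptor. In CKD its blood level climbs, and it has been tied to growth of the heart muscle through FGFR4, phospholipase C gamma and calcineurin, a route that does not need klotho. The phosphate carriers serve the cell's own phosphate supply: SLC20A1 and SLC20A2 bring phosphate in with sodium, and XPR1 lets it out.

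Library depth was 19.8 M to 65.4 M counts. Cardiomyocyte genes dominated, with Myh6 at 11284 to 29665 CPM (counts scaled to a common library size, after TMM factors), which marks heart muscle but not ventricle alone. The 5 atrial genes listed (Myl7, Myl4, Sln, Nppa and Bmp10) summed to 62.8 to 2775 CPM over the libraries, beside the labelled tissue of ventricular myocardium. Some of these, such as Nppa, are also made in ventricle under load. Skeletal muscle genes summed to at most 565 CPM and adipose genes to at most 353 CPM. The part of these tissues in the results was not tested. Sham-Oxf replicate 1 stood apart, with the lowest depth and 15879 genes with a count, where the other libraries had at least 27128. CKD-Oxf replicate 4 had 20.6% of its counts on the 7SL RNA genes Rn7s1 and Rn7s2, at the upper end of a range of 1.83% to 20.98%, and the highest score of liver genes, at 3.09. Mouse numbers ran from 901 to 910, 913 to 920, 921 to 929 and 931 to 940 in the order of groups above, so the 2 cannot be told apart. In bulk tissue, fewer cells of a type and less RNA per cell cannot be told apart.

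Of the 9 genes, Slc20a2, Slc20a1, Fgfr1, Fgfr3 and Xpr1 were expressed at clear levels, and Fgfr2 at a low level. Fgfr4, Kl and Fgf23 were near the limit of detection. Levels were compared between genes as CPM per kb, with all annotated exons of a gene together as its length. The transcripts made in heart may be shorter, so this scale removes gene length only in part. On this scale the means over 28 mice were 8.41 ± 1.57 for Slc20a2, 6.56 ± 1.91 for Slc20a1, 6.04 ± 1.20 for Fgfr1, 2.90 ± 1.03 for Fgfr3 and 1.92 ± 0.184 for Xpr1 (SD, n = 28). The lower genes were at 0.269 ± 0.138 for Fgfr2, 0.0974 ± 0.0412 for Fgfr4, 0.0321 ± 0.0189 for Kl and 0.0192 ± 0.0264 for Fgf23. Slc20a2 lay above 88.1% of the genes tested, Fgfr1 above 82.5%, Xpr1 above 55.1%, Fgfr2 above 15.95% and Kl above 0.631%.

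Neighbours in this order overlapped in range, except Xpr1 and Fgfr2, where Xpr1 was higher in 28 of 28 mice. Slc20a1 and Fgfr1 could not be ordered, since Slc20a1 was the higher in 16 of 28 mice. Slc20a2 exceeded Slc20a1 in 24 mice, Fgfr1 exceeded Fgfr3 in 27, Fgfr3 exceeded Xpr1 in 23, Fgfr2 exceeded Fgfr4 in 27 and Fgfr4 exceeded Kl in 26. Kl was above Fgf23 in 18 mice. The order rests on the exon lengths, such as 17.9 kb for Xpr1 and 7.16 kb for Fgfr3. Before division by length, Xpr1 had the higher mean, at 34.2 CPM against 20.7 for Fgfr3. Of the summed FGF receptor level per kb, Fgfr1 made up 65.2% ± 6.19, Fgfr3 30.9% ± 7.13, Fgfr2 2.92% ± 1.40 and Fgfr4 1.04% ± 0.412 (SD, n = 28). The share of Fgfr3 reached 50.4% in the highest CKD-Oxf mouse.

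**Figure D1:**
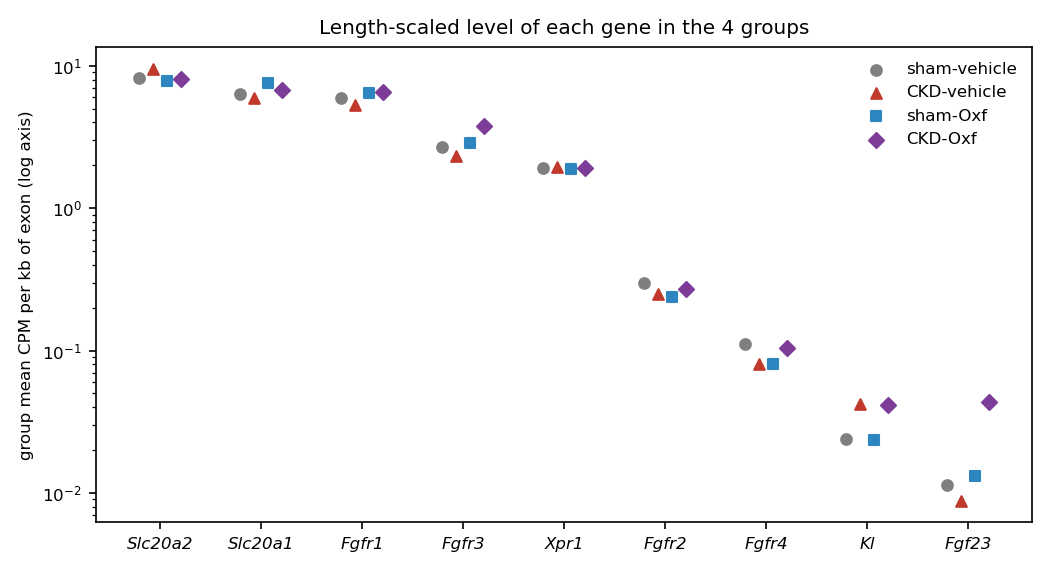
Group mean level of each gene in CPM per kb of exon on a log axis, with 1 marker per group (n = 10, 6, 5 and 7 mice). The 5 genes from Slc20a2 to Xpr1 lie above 1 in all groups, and Kl and Fgf23 lie below 0.05.

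Fgf23 (ENSMUSG00000000182, chromosome 6, 127072902 to 127081408) had 43 counts in all 28 libraries together. Its counts per library had a lowest value of 0, a median of 1 and a highest of 2 in sham-vehicle, and of 0, 0 and 4 in CKD-vehicle. In sham-Oxf the libraries held 0, 4, 1, 0 and 0 counts. In CKD-Oxf they ran from 0 over a median of 3 to 10, and 24 of the 43 counts came from this group. No Fgf23 count was seen in 13 of 28 libraries, where a count of 0 allows up to 3 counts. The gene was too low for the filter of the test. Fitted without a filter, Fgf23 was 1.96 ± 0.95 (SE) higher on the log2 scale in CKD-Oxf than in CKD-vehicle, and it did not pass (edgeR quasi-likelihood test, adjusted p 0.482). CKD-vehicle and sham-vehicle differed by -0.25 (95% interval -2.18 to 1.69) in that fit, an interval too wide to tell a difference at these counts.

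Kl (ENSMUSG00000058488, chromosome 5, 150952607 to 150993817) had 350 counts in all, and 17 of 28 libraries held at least 10. In sham-vehicle it ranged from 0.0303 to 0.540 CPM with a median of 0.184, and in CKD-vehicle from 0.136 to 0.663 with a median of 0.354. The 5 sham-Oxf mice were at 0, 0.450, 0.149, 0.243 and 0.260 CPM, and CKD-Oxf ranged from 0.183 to 0.555 with a median of 0.391. Mice of both CKD groups were mostly in the upper part of the sham ranges, and all groups overlapped. Averaged over gavage, Kl was 0.78 ± 0.36 (SE) higher in CKD on the log2 scale (95% interval 0.03 to 1.52, unadjusted p 0.0418), and it did not pass (edgeR quasi-likelihood test, adjusted p 0.453). Of all genes tested in this contrast, 10.6% had an unadjusted p under 0.05. In CKD-vehicle against sham-vehicle the difference was 0.80 ± 0.47 (edgeR adjusted p 0.955). In CKD-Oxf against sham-Oxf it was 0.75 ± 0.55 (edgeR adjusted p 0.808), and 0.48 without sham-Oxf replicate 1, the library with 0 Kl counts. Distal tubule cells of the kidney are the main site of klotho, and their gene Slc12a3 was at 0.534 to 5.22 CPM over the 28 hearts. Of other tubule genes, Lrp2 was at 2.37 to 26.5 CPM, and Umod and Slc12a1 were at 0 counts in 14 and 13 libraries, with at most 0.792 and 1.02 CPM. Their part in the Kl values was not tested.

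Fgfr1 (ENSMUSG00000031565, chromosome 8, 25513654 to 25575718), the main FGF receptor of adult heart, was the most abundant receptor. It ranged from 43.8 to 75.2 CPM (median 57.2) in sham-vehicle and from 43.6 to 74.1 (median 50.0) in CKD-vehicle. Sham-Oxf mice were at 50.0, 75.0, 77.0, 53.7 and 63.0 CPM, and CKD-Oxf ranged from 45.4 to 77.5 (median 63.0). All 4 groups covered much the same range, and 5 of 6 CKD-vehicle mice were below the sham-vehicle median. Mean log2 CPM was 5.85 ± 0.29, 5.70 ± 0.27, 5.97 ± 0.28 and 5.98 ± 0.28 (SD) in the order sham-vehicle, CKD-vehicle, sham-Oxf, CKD-Oxf, which is kept for such means below. The difference was largest in CKD-Oxf against CKD-vehicle, at 0.29 ± 0.16 (SE), and did not pass (edgeR quasi-likelihood test, adjusted p 0.430).

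Fgfr2 (ENSMUSG00000030849, chromosome 7, 130162451 to 133123350) was low and varied widely between mice. Its CPM ran from 1.33 to 6.41 (median 2.47) in sham-vehicle and from 1.19 to 3.97 (median 2.72) in CKD-vehicle. The sham-Oxf mice were at 1.71, 4.26, 3.28, 1.05 and 1.98, and CKD-Oxf ran from 0.272 to 5.27 (median 2.85). Each group spanned a wide range, and all overlapped. Mean log2 CPM was 1.51 ± 0.65, 1.24 ± 0.73, 1.16 ± 0.78 and 1.10 ± 1.38 (SD). The GENCODE M21 model of Fgfr2 is very long and shares 314 exon bases with Ctbp2 on the same strand, so its reads are uncertain.

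Fgfr3 (ENSMUSG00000054252, chromosome 5, 33721674 to 33737068) showed the clearest pattern among the receptors, being highest in CKD-Oxf. It ranged from 13.2 to 24.7 CPM (median 19.4) in sham-vehicle and from 11.01 to 24.8 (median 15.0) in CKD-vehicle. The 5 sham-Oxf mice lay close together, at 19.1, 20.0, 20.2, 19.0 and 23.9 CPM. The 7 CKD-Oxf mice were at 19.6, 30.4, 42.8, 17.0, 40.9, 16.9 and 20.6 CPM. The 3 highest, replicates 2, 3 and 5, were above every mouse of the other groups, and the other four lay within the sham range. Mean log2 CPM was 4.23 ± 0.30, 3.98 ± 0.50, 4.35 ± 0.13 and 4.65 ± 0.58 (SD).

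In CKD-Oxf against CKD-vehicle, Fgfr3 was 0.70 ± 0.22 (SE) higher on the log2 scale (95% interval 0.24 to 1.16, unadjusted p 0.00387), with 7 of 7 CKD-Oxf mice above the CKD-vehicle median. It did not pass over all genes tested (edgeR quasi-likelihood test, adjusted p 0.224). In this contrast 13.1% of all genes had an unadjusted p under 0.05, and 1 of the 8 tested genes did. The call depended on the method and on 1 library: Fgfr3 passed with limma voom (0.84, adjusted p 0.0101) and without CKD-Oxf replicate 4 (0.78, edgeR adjusted p 0.0459). In these fits 3620 of 24273 and 927 of 24232 genes passed, against 8 of 24273 in the main fit. Averaged over surgery, Fgfr3 was 0.40 ± 0.15 higher with Oxf (edgeR adjusted p 0.125), where 23.0% of all genes had an unadjusted p under 0.05. It passed with limma voom (0.49, adjusted p 0.0139), where 5307 of 24273 genes passed, against 681 in the main fit. In sham mice the Oxf difference was 0.10 ± 0.22 (edgeR adjusted p 0.893). The interaction, the test of whether the Oxf difference depended on surgery, was 0.60 ± 0.31 (edgeR adjusted p 1.000, unadjusted p 0.0642).

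Fgfr4 (ENSMUSG00000005320, chromosome 13, 55152640 to 55168759), the receptor tied to uraemic heart growth, had 0 to 30 counts per library. It ranged from 0.187 to 0.685 CPM (median 0.387) in sham-vehicle and from 0.104 to 0.430 (median 0.301) in CKD-vehicle. Sham-Oxf mice were at 0, 0.450, 0.298, 0.243 and 0.442 CPM, and CKD-Oxf ranged from 0.148 to 0.547 (median 0.346). The groups overlapped throughout, and the value of 0 was sham-Oxf replicate 1. CKD-vehicle was at -0.47 ± 0.41 (SE) relative to sham-vehicle on the log2 scale (95% interval -1.30 to 0.36), and this did not pass (edgeR quasi-likelihood test, adjusted p 0.955). In sham-Oxf against sham-vehicle Fgfr4 was at -0.40, and at -0.13 without sham-Oxf replicate 1.

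Slc20a1 (ENSMUSG00000027397, chromosome 2, 129198764 to 129211616), also known as PiT-1, varied most among the well expressed carriers. It ranged from 22.5 to 43.9 CPM (median 37.4) in sham-vehicle and from 13.2 to 51.1 (median 33.4) in CKD-vehicle. Sham-Oxf mice were at 41.6, 49.0, 31.5, 39.0 and 50.6 CPM, and CKD-Oxf ranged from 12.5 to 55.1 (median 38.7). A pair of mice stood below all others, CKD-vehicle replicate 3 at 13.2 CPM and CKD-Oxf replicate 4 at 12.5. Both had high 7SL shares, 20.98% and 20.6%. Within groups, Pearson r of Slc20a1 with the log2 7SL share was -0.373 in sham-vehicle, -0.637 in CKD-vehicle and -0.409 in CKD-Oxf. None of these passed (permutation tests, adjusted p 0.387, 0.296 and 0.575). The part of the 7SL share in the 2 low values was not tested. Mean log2 CPM was 5.10 ± 0.34, 4.92 ± 0.72, 5.39 ± 0.28 and 5.12 ± 0.69 (SD). The largest of the 4 pairwise differences was 0.27 ± 0.25 (SE), in sham-Oxf against sham-vehicle (edgeR quasi-likelihood test, adjusted p 0.689).

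Slc20a2 (ENSMUSG00000037656, chromosome 8, 22476788 to 22569612), also known as PiT-2, was the most abundant carrier. It ranged from 42.9 to 66.9 CPM (median 48.4) in sham-vehicle and from 54.1 to 75.1 (median 56.3) in CKD-vehicle. Sham-Oxf mice were at 26.04, 40.3, 61.1, 51.2 and 65.3 CPM, and CKD-Oxf ranged from 42.6 to 60.1 (median 50.1). All 6 CKD-vehicle mice were above the sham-vehicle median, and 6 of 7 CKD-Oxf mice were below every CKD-vehicle mouse. Mean log2 CPM was 5.66 ± 0.23, 5.88 ± 0.18, 5.54 ± 0.54 and 5.65 ± 0.15 (SD). Even so, Slc20a2 did not pass in CKD-vehicle against sham-vehicle (0.22 ± 0.14 SE, edgeR quasi-likelihood test, adjusted p 0.955). In CKD-Oxf against CKD-vehicle it was at -0.24 ± 0.15 (edgeR adjusted p 0.504). The lowest sham-Oxf value was replicate 1. Without that library the difference of sham-Oxf from sham-vehicle moved from -0.07 to 0.09.

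Xpr1 (ENSMUSG00000026469, chromosome 1, 155275701 to 155417415), the only known phosphate exporter of mammals, was the most even of the 9 genes. It ranged from 30.0 to 40.2 CPM (median 34.5) in sham-vehicle and from 27.9 to 38.03 (median 34.9) in CKD-vehicle. Sham-Oxf mice were at 25.6, 33.8, 38.6, 37.8 and 32.3 CPM, and CKD-Oxf ranged from 31.7 to 37.9 (median 33.3). The medians of the 4 groups lay between 33.3 and 34.9 CPM. The 4 pairwise differences lay between -0.03 and 0.02 on the log2 scale, and all 4 of their 95% intervals lay between -0.23 and 0.23.

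**Figure D2:**
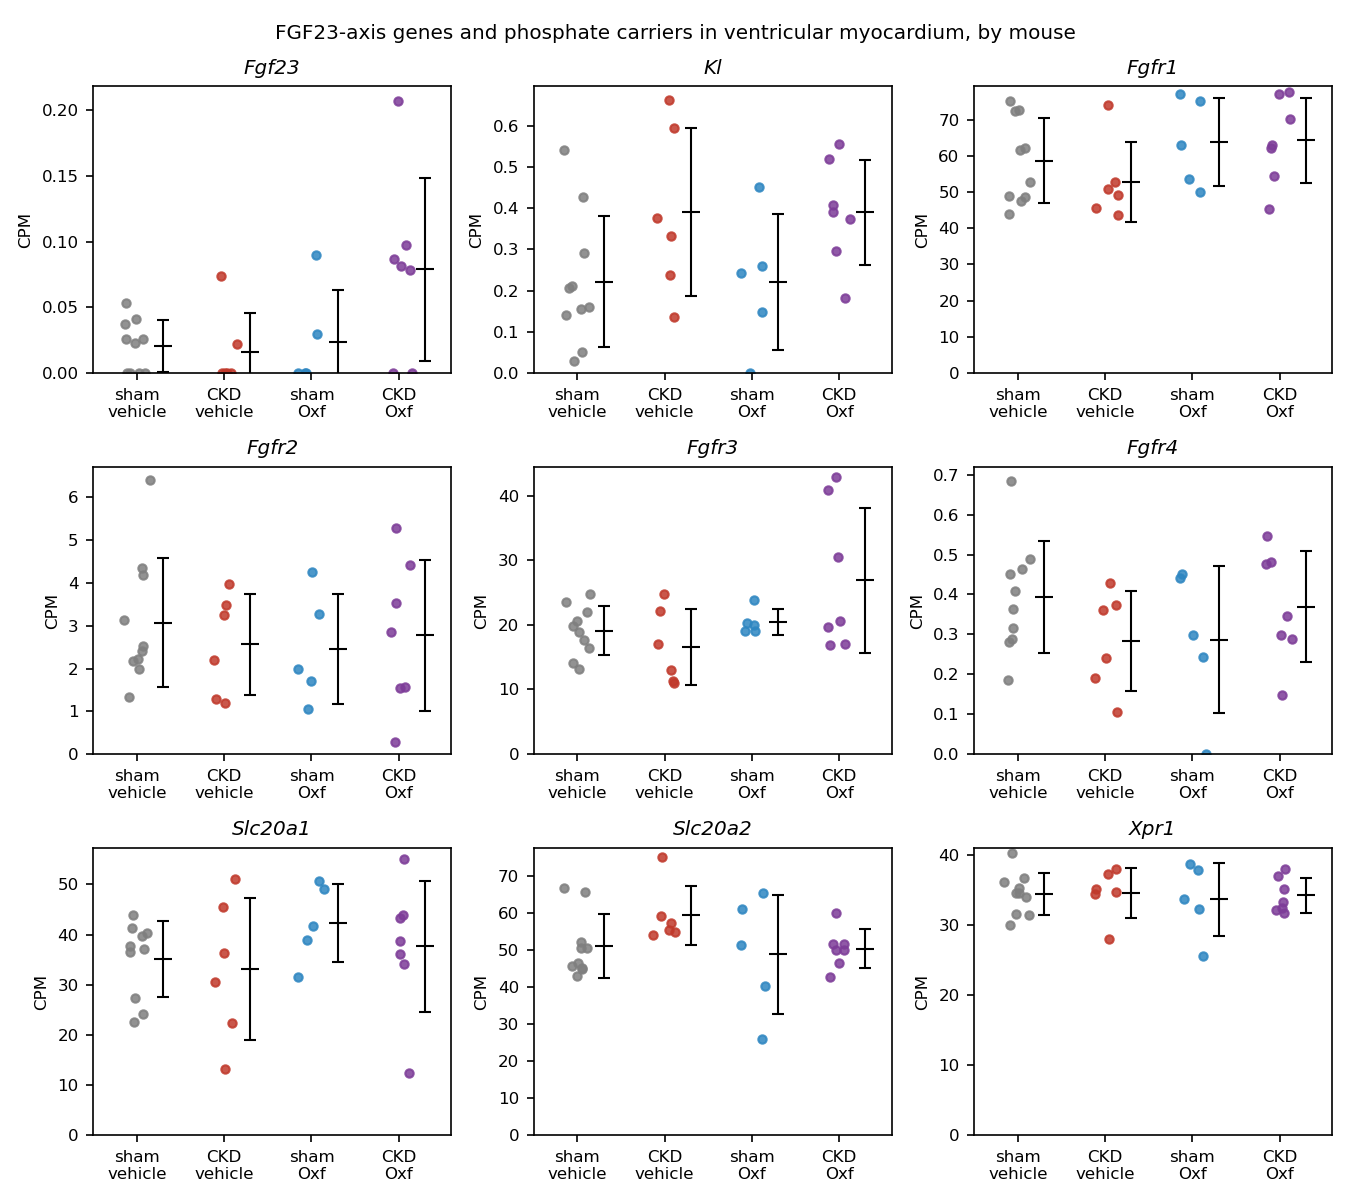
CPM of each gene in each of the 28 mice (points) by group, with the group mean and SD beside them (SD bars end at 0), each panel on its own linear axis from 0. The 3 highest CKD-Oxf mice lie above all others for Fgfr3, and the groups overlap for every gene.

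Across the 4 pairwise comparisons, which share groups with each other, 0 of the 8 tested genes passed an adjusted p of 0.05 (edgeR quasi-likelihood test). In CKD-vehicle against sham-vehicle 0.00824% of all genes passed, in CKD-Oxf against CKD-vehicle 0.0330%, and in the remaining pairs 0%. The averaged CKD contrast and the interaction also had 0% of all genes passing and 0 of the 8. The averaged Oxf contrast had 2.81% of all genes passing and 0 of the 8. At an unadjusted p under 0.05, 0 of the 8 differed in CKD-vehicle against sham-vehicle (4.46% of all genes), sham-Oxf against sham-vehicle (12.6%), the interaction (3.55%) and CKD-Oxf against sham-Oxf (8.23%). With DESeq2, 0 of the tested members passed in any of the 7 contrasts, and with limma voom Fgfr3 passed in 2 of them. In those 2 contrasts 3620 and 5307 of 24273 genes passed with limma voom.

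The directions were mixed. In CKD-vehicle against sham-vehicle, 3 of 8 genes were higher, with a median log2 difference of -0.12, where 44.4% of all genes were higher and the median was -0.03. In CKD-Oxf against CKD-vehicle, 5 of 8 were higher (median 0.15), against 53.2% of all genes (median 0.03). In sham-Oxf against sham-vehicle, 4 of 8 were higher (median 0.01), against 45.1% of all genes (median -0.04). In CKD-Oxf against sham-Oxf, 7 of 8 were higher (median 0.11), against 56.7% of all genes (median 0.05), and Slc20a1 was the exception.

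**Figure D3:**
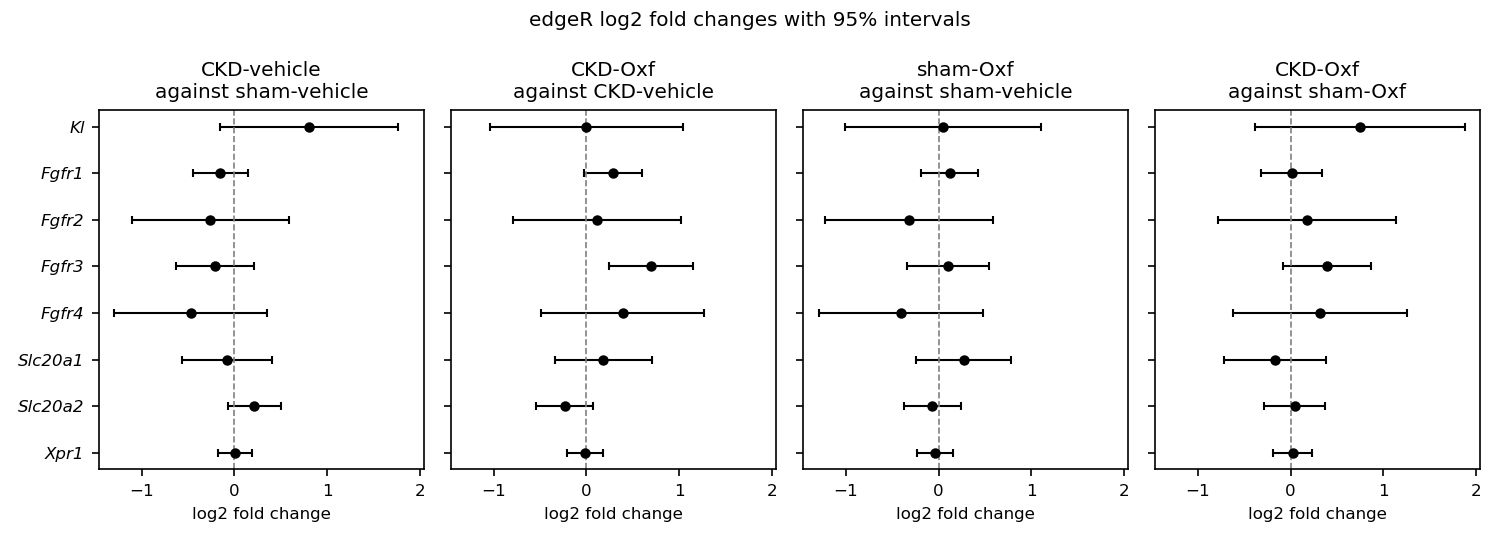
Log2 fold change (points) with 95% interval (bars) of the 8 tested genes in the 4 pairwise comparisons, from the edgeR fit of all 28 libraries. The interval of Fgfr3 in CKD-Oxf against CKD-vehicle, 0.24 to 1.16, is the only one that does not include 0.

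Genes around the FGF23 axis were read in 10 lists with 95 genes, of which 94 were in the table and 80 could be tested. In these lists 3 genes passed, all in the averaged Oxf contrast and all higher with Oxf, where 1.26% of all genes passed in that direction and 1.54% in the other. Etv4, a transcription factor switched on by FGF signalling, was 1 of 13 tested feedback and target genes, and was 0.96 ± 0.24 (SE) higher (edgeR quasi-likelihood test, adjusted p 0.0369). The vehicle groups had a mean of 0.410 ± 0.122 CPM (sham) and 0.285 ± 0.0683 (CKD), and the Oxf groups 0.834 ± 0.734 (sham) and 0.548 ± 0.147 (CKD) (SD). Map2k2, the kinase MEK2, was 1 of 13 genes of the receptor adaptor and MAPK list, and was 0.33 ± 0.09 higher (edgeR adjusted p 0.0402), with group means of 31.1, 33.5, 42.6 and 38.7 CPM in the order of groups above. Ip6k3 makes inositol pyrophosphates, the signal molecules that bind XPR1. It was 1 of 10 other phosphate genes and was 0.57 ± 0.15 higher (edgeR adjusted p 0.0386), with group means of 3.27, 3.70, 5.41 and 4.95 CPM.

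Each of these calls was lost in some fits. Leaving out 1 library at a time, Etv4 passed in 15 of 28 fits, Ip6k3 in 16 and Map2k2 in 13, with edgeR adjusted p between 0.00997 and 0.0855. Without sham-Oxf replicate 1, Etv4 was at 0.62 (edgeR adjusted p 0.0508) and Map2k2 at 0.30 (edgeR adjusted p 0.0525), and Ip6k3 kept its call at 0.47 (edgeR adjusted p 0.0497). A fit that also held the clock score described below left 0 of the 80 past the threshold in the averaged Oxf contrast. It left 0 of all 24273 genes past the threshold there, against 681 in the main fit.

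The other lists held 0 genes past the threshold in any contrast. These were the FGF ligands (9 of 15 tested), intracellular FGF factors (4 of 4), co-receptors and binding proteins (9 of 10), the phospholipase C gamma and calcineurin arm (10 of 10), FGF23 processing (5 of 7), klotho sheddases (3 of 3) and vitamin D and parathyroid hormone signalling (4 of 6). At an unadjusted p under 0.05, 6 of the 80 genes differed in CKD-vehicle against sham-vehicle (4.46% of all genes), 11 in CKD-Oxf against CKD-vehicle (13.1%), 11 in sham-Oxf against sham-vehicle (12.6%), 4 in the interaction (3.55%) and 9 in CKD-Oxf against sham-Oxf (8.23%). In the averaged contrasts 17 of the 80 differed with Oxf (23.0% of all genes) and 11 with CKD (10.6%). Nothing particular to the list is read from these counts. The median log2 difference of the 80 lay between 0.00 and 0.02 in each contrast.

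The genes with the smallest p where none passed came from several arms. Rcan1, a calcineurin inhibitor and readout of calcineurin activity, had its highest mean in CKD-vehicle. Its mean was 22.6 ± 6.81 CPM there, against 15.7 ± 3.83 in sham-vehicle, 14.8 ± 2.87 in CKD-Oxf and 14.4 ± 6.00 in sham-Oxf (SD). In CKD-Oxf against CKD-vehicle it was at -0.61 ± 0.21 (SE, edgeR adjusted p 0.244). This turned to 0.21 with the clock score as covariate (edgeR adjusted p 1.000), and it passed with limma voom (-0.65, adjusted p 0.0138) and with the liver score as covariate (-0.77, edgeR adjusted p 0.0386). Of all 24273 genes, 0 passed in this contrast with the clock score, 3620 with limma voom and 1727 with the liver score. Spry4, an inhibitor of receptor tyrosine kinase signalling, was lowest in CKD-Oxf, at 9.80 ± 1.63 CPM, against 16.3 ± 4.03 in sham-Oxf, 12.3 ± 2.75 in CKD-vehicle and 14.8 ± 2.80 in sham-vehicle. The difference of CKD-Oxf from sham-Oxf was -0.74 ± 0.17 (edgeR adjusted p 0.195), and that of CKD averaged over gavage was -0.50 ± 0.11 (edgeR adjusted p 0.230). Spry4 passed in both with DESeq2 (-0.74, adjusted p 0.0139, and -0.52, adjusted p 0.0126). In the averaged contrast it also passed with limma voom (-0.48, adjusted p 0.0394) and with the 7SL share as covariate (-0.55, edgeR adjusted p 0.0281). Trpc6, a calcium channel upstream of calcineurin, had the smallest interaction p (1.67 ± 0.68, edgeR adjusted p 1.000; 1.03 with limma voom and 1.11 with the liver score). Lctl, a klotho relative, was at -3.20 ± 1.10 in CKD-vehicle against sham-vehicle (edgeR adjusted p 0.955), with 2 of 6 and 2 of 10 libraries at 0. In sham-Oxf against sham-vehicle the smallest p was that of Map2k2 (0.46 ± 0.12, edgeR adjusted p 0.166), which passed with DESeq2 (0.44, adjusted p 0.0463).

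For each list the gene with the highest mean log2 CPM is given, on a scale that does not remove gene length. Among ligands it was Fgf1, at 41.9 ± 8.24 CPM, and among the intracellular factors Fgf13, at 19.1 ± 4.33. Gpc1, a heparan sulfate proteoglycan, was at 175 ± 49.6 CPM, and Ptpn11, the phosphatase SHP2, at 125 ± 25.2. Egr1, an immediate-early target gene, was at 53.4 ± 33.4 CPM and Plcg1, phospholipase C gamma 1, at 139 ± 37.7. Furin, a protease that can cleave FGF23, was at 81.9 ± 16.8 CPM, and the sheddase Adam10 at 41.6 ± 10.3. Ppip5k2, an inositol pyrophosphate kinase, was at 309 ± 89.4 CPM, and Rxra, the partner of the vitamin D receptor, at 43.5 ± 8.64 (SD, n = 28). Fgf15, Fgf8 and Fgf20 had 3, 7 and 5 counts in all 28 libraries together.

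Over the 28 mice, Fgfr3 and Slc20a1 varied together more than any other pair of the 8 tested genes (Spearman rho 0.74). Slc20a1 and Xpr1 varied most in opposite directions (rho -0.63). These correlations are descriptions over libraries that share groups, depth and composition. Sequences before the most upstream RefSeq start of each of these 3 genes are given because of those patterns, on build GRCm38.p6. They end before the gene start of GENCODE M21 as well. Capitals mark the E-box CACGTG, the motif bound by the clock proteins CLOCK and BMAL1, and the GC box GGGCGG, read on both strands.
Slc20a1, chr2:129198523-129198763, plus strand: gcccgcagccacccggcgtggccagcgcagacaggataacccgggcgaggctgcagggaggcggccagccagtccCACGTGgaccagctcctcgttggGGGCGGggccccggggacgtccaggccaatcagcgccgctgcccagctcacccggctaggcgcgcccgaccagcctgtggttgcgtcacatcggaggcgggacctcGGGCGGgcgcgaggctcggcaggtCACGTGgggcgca
Fgfr3, chr5:33721474-33721673, plus strand: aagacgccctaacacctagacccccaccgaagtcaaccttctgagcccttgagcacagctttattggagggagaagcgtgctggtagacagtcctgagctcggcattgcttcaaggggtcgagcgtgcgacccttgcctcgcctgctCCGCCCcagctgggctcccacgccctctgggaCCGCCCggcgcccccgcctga
Xpr1, chr1:155417445-155417694, minus strand: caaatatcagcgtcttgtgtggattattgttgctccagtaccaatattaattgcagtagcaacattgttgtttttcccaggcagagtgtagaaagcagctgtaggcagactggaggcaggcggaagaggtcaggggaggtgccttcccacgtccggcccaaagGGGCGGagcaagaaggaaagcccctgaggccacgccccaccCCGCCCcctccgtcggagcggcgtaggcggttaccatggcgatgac
The Slc20a1 sequence held 2 E-boxes, which begin 175 and 22 bases before the RefSeq start. Neither Fgfr3 nor Xpr1 held one in these windows. Slc20a1 and Fgfr3 each had a further RefSeq window, not printed here, which held 0 E-boxes. RefSeq windows were matched for 7 of the 9 genes, with 9 windows of 250 bases, of which 1 held an E-box and 7 a GC box. Of 32851 mouse promoter windows of the same length, 6.02% held an E-box and 32.7% a GC box. A match of letters is a description and not a binding site.

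The clock score is the mean log2 level of 9 genes around Dbp and Per1 minus that of 5 genes around Arntl and Npas2, relative to sham-vehicle. Sham-vehicle mice spanned -1.48 to 1.76, CKD-vehicle mice -2.57 to -0.16, sham-Oxf mice 0.77 to 2.004 and CKD-Oxf mice -0.08 to 1.61. The scores of CKD-vehicle and CKD-Oxf did not overlap, and these are the groups between which Fgfr3 differed most. Once the score entered the fit as a covariate, the Fgfr3 difference was 0.19 (edgeR adjusted p 1.000) in place of 0.70. The averaged Oxf difference was then -0.04 (edgeR adjusted p 0.988) in place of 0.40. Of all 24273 genes, 0 passed in either contrast with this covariate, against 8 and 681 in the main fit. Since the scores of CKD-vehicle and CKD-Oxf did not overlap, clock score and group cannot be told apart between them. With the 7SL share as covariate, the Fgfr3 difference of CKD-Oxf from CKD-vehicle was 0.69 (edgeR adjusted p 0.279). With the liver score it was 0.79 (edgeR adjusted p 0.0560). The averaged Oxf difference was 0.38 (edgeR adjusted p 0.255) and 0.43 (edgeR adjusted p 0.0720) in these fits. Of all 24273 genes, 8 and 1727 passed in the first contrast, and 132 and 3301 in the averaged one.

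Within groups the relation of Fgfr3 to the clock score was uneven. Among CKD-vehicle mice, Pearson r was 0.96 (two-sided exact permutation p 0.0125, adjusted p 0.1) and Spearman rho 0.829 (exact permutation p 0.0583, adjusted p 0.156, n = 6). Once the 2 mice farthest from the median score were left out, r was 0.917 (exact permutation p 0.125). In sham-vehicle r was 0.378 (permutation p 0.28, adjusted p 0.737) and rho 0.273 (permutation p 0.448, adjusted p 0.782, n = 10). There r was -0.115 (permutation p 0.791) once the 2 farthest were left out. Among CKD-Oxf mice r was 0.106 (exact permutation p 0.871, adjusted p 0.871) and rho -0.143 (exact permutation p 0.783, adjusted p 0.894, n = 7). There r was 0.109 (exact permutation p 0.833) once the 2 farthest were left out. The highest clock score of CKD-Oxf was not in 1 of its 3 mice with the highest Fgfr3. Each group's values were adjusted over the 8 genes. Slc20a1, whose printed sequence held E-boxes, had r 0.334 with the clock score in sham-vehicle (permutation test, adjusted p 0.737). Its r was 0.659 in CKD-vehicle and 0.171 in CKD-Oxf (exact permutation tests, adjusted p 0.215 and 0.622). The 1 gene whose r passed was Fgfr4 in CKD-Oxf, with r 0.915 (exact permutation p 0.00456, adjusted p 0.0365) and rho 0.857 (exact permutation p 0.0238, adjusted p 0.19, n = 7), on 7 to 28 counts per library. Without the 2 farthest mice its r was 0.921 (exact permutation p 0.0417). In sham-vehicle the r of Fgfr4 had the opposite sign, at -0.223 (permutation p 0.536, adjusted p 0.744). In CKD-vehicle it was 0.892 (exact permutation p 0.025, adjusted p 0.1). The 5 sham-Oxf mice are too few for a correlation.

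Fgfr1 was lower in libraries with a larger 7SL share, a relation read after the data were seen. In sham-vehicle r with the log2 share was -0.732 (permutation p 0.014, adjusted p 0.112) and rho -0.842 (permutation p 0.00355, adjusted p 0.0284, n = 10). Among CKD-vehicle mice r was -0.978 (exact permutation p 0.00833, adjusted p 0.0667) and rho -0.943 (exact permutation p 0.0167, adjusted p 0.117, n = 6). Among CKD-Oxf mice r was -0.90 (exact permutation p 0.00774, adjusted p 0.0619) and rho -0.857 (exact permutation p 0.0238, adjusted p 0.19, n = 7). Without the 2 mice farthest from the median share, r was -0.91 in sham-vehicle (permutation p 0.00032). It was -0.706 in CKD-vehicle (exact permutation p 0.333) and -0.915 in CKD-Oxf (exact permutation p 0.0583). These p-values were not adjusted, and few mice remained in the CKD groups. The sign was the same in the 3 groups, and the adjusted p passed only for rho in sham-vehicle. With the 7SL share as covariate, the Fgfr1 difference of CKD-Oxf from CKD-vehicle was 0.13 in place of 0.29. It was 0.10 with the clock score and 0.47 with the liver score (edgeR adjusted p 0.0558), and passed in none of these fits.

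**Figure D4:**
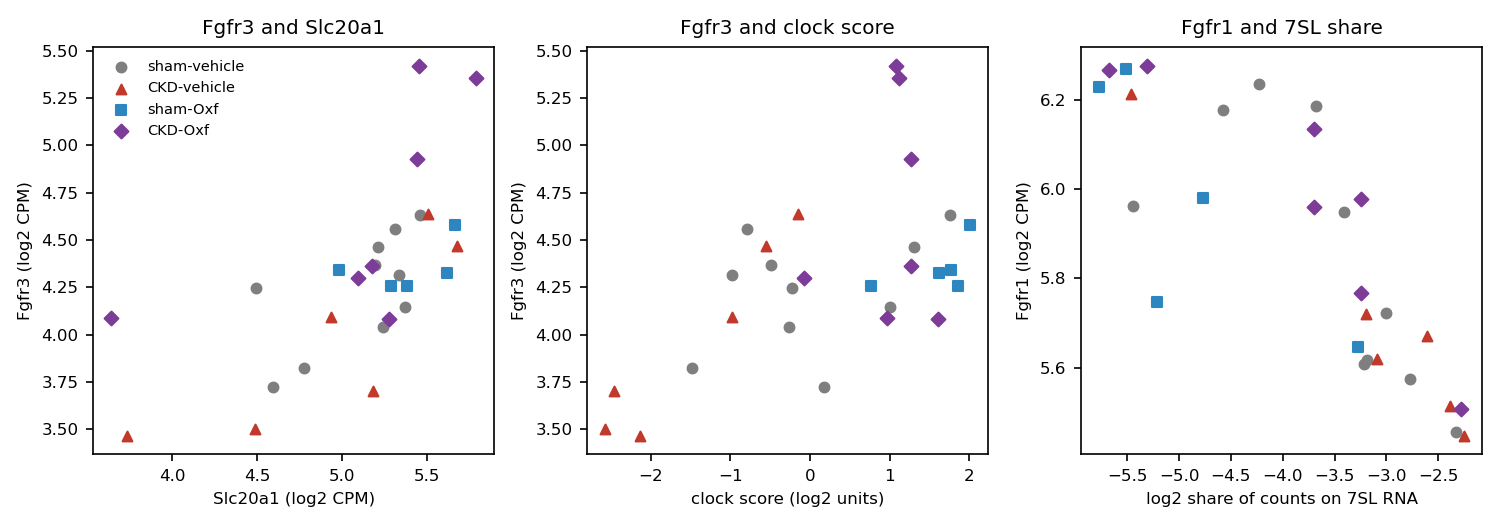
Each point is 1 of the 28 mice, marked by group, with all levels in log2 CPM: Fgfr3 against Slc20a1 (left), Fgfr3 against the clock score (middle) and Fgfr1 against the log2 share of counts on 7SL RNA (right). Fgfr3 and Slc20a1 tend to be high in the same mice, and Fgfr1 is lower where the 7SL share is larger.

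The genes whose log2 CPM was most like that of each member were found by Spearman rho over the 28 libraries, among about 13906 genes whose mean log2 CPM was 1 or more. For Fgfr1 they were Grina (rho 0.95) and Epb41l2 (0.94), for Fgfr2 Ildr2 (0.91) and Alcam (0.91), and for Fgfr3 Rin3 (0.92) and Mcf2l (0.91). For Slc20a1 they were Zfp446 (0.91) and Rasgrp2 (0.91), for Slc20a2 Lyrm9 (0.83) and Pde1c (0.83), and for Xpr1 Gatad2b (0.89) and Setd7 (0.86). The low genes had weaker neighbours, with Slc37a1 (0.69) and Otub2 (0.68) for Kl and Epha1 (0.73) and RP23-23P9.4 (0.72) for Fgfr4.

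Some reads could belong to overlapping genes, since the use of strand is not given in the sources used here. Fgfr1 shares 164 exon bases with Gm16159, Fgfr3 998 with G630022F23Rik, Slc20a1 280 with Gm4430 and 452 with 9830144P21Rik, and Slc20a2 95 with Smim19, all on the opposite strand. These genes had fewer counts than their partner, such as 378 for G630022F23Rik against 22975 for Fgfr3. For Fgfr2, whose overlap with Ctbp2 on the same strand is given above, it was the reverse, with 30248 counts for Ctbp2 against 3266 for Fgfr2.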

How the data were processed

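The authors deposited raw counts per gene in 1 table of whole numbers. Per the submitters' processing notes, the tools were STAR 2.6.1d, featureCounts 1.6.3 (Subread), FastQC 0.11.7 and MultiQC 1.9, with build mm10. The annotation, the use of strand and the handling of reads with several matches are not given in the sources used here. Of the gene identifiers, 45465 of 45513 were found in GENCODE M21 (GRCm38), which gave positions and exon lengths. Samples were grouped by the labels for surgery and bacteria. Labels give each library its own mouse number, and replicates were numbered in the order of records. No 2 libraries of a group were identical, and over the 91 pairs within groups the lowest chi-square per degree of freedom was 26.5, far above sampling noise.

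Counts were scaled by TMM and tested with the edgeR 4.0.16 robust quasi-likelihood F test (R 4.3.3) in 1 fit of 4 group means over 28 libraries, without covariates. The filterByExpr function (minimum count 10) left 24273 genes, with 8 of the 9 members. P-values were adjusted by Benjamini-Hochberg over all of them, at a threshold of 0.05. The 7 contrasts tested were 4 pairwise, the interaction and both averaged effects. Log2 CPM used a prior count of 2. Depth was 19.8 M to 65.4 M counts per library, and precision is poorest for genes below about 30 counts.

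Alternatives were DESeq2 1.42.0, limma 3.58.1 voom with sample weights, other size factors, other filters, only the compared groups, clock, 7SL and liver scores as covariates, and leaving out each library. Correlations used two-sided permutation tests (exact, or 100000 draws in sham-vehicle). All members were named. List genes were named if they passed, or as the smallest p where none passed, with the most abundant gene of each list and the 2 genes most like each member. Fgf15, Fgf8 and Fgf20 were named after their values were seen. Members, lists and rules were chosen with earlier results of these data known.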

Additional observations from a re-analysis of the deposited data

Results flagged for a closer look

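In each group, the highest or lowest mouse was set against its nearest neighbour for the 9 genes in log2 CPM, and a gap was marked where its share of the group's range passed Dixon's 95% limit. Of 36 sets, 7 did. Among independent sets of normally distributed values, chance marks about 1 in 20, or 1.8 of 36. The 9 genes were read in the same libraries, and counts of 0 are tied at the floor. An excess over chance can therefore not be read from these numbers. Fgfr3 in sham-Oxf was highest in replicate 5, with a gap of 0.732 of the range. Fgfr4 in sham-Oxf was lowest in replicate 1 (0.769), the library with 0 counts for it. Fgfr1 in CKD-vehicle was highest in replicate 5 (0.643), the library with the lowest 7SL share of its group, at 2.26%. Fgfr2 in CKD-Oxf was lowest in replicate 5 (0.571), with 10 counts. Slc20a1 in CKD-Oxf was lowest in replicate 4 (0.678), the library with the highest 7SL share of its group. Slc20a2 in CKD-vehicle was highest in replicate 2 (0.724), and Xpr1 in CKD-vehicle was lowest in replicate 6 (0.672).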

How the results depend on the processing

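No paired analysis was possible because the labels give mouse numbers and no replicate numbers shared between groups. In the comparison of CKD-Oxf with CKD-vehicle, 1 member, Fgfr3, passed with limma voom, and leaving out 1 library gave 0 to 1 members (1 without CKD-Oxf replicate 4). Averaged over surgery, 1 member, again Fgfr3, passed with limma voom. With limma voom 3620 of 24273 genes passed in the first contrast and 5307 in the second. Without CKD-Oxf replicate 4, 927 of 24232 genes passed in the first. In the other alternatives 0 members passed. Values that had not passed changed sign in 182 of 2090 alternative member fits, 70 of 522 of them with another method and 112 of 1568 without a library.

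The count of list genes moved more. For Oxf averaged over surgery, 3 became 7 with DESeq2, 21 with limma voom, 0 without a filter, 6 with at least 10 counts in every library, 0 with the clock score as covariate, 1 with the 7SL share and 12 with the liver score. The count over all genes moved too, from 681 of 24273 to 2083 of 23439 with DESeq2 and 5307 of 24273 with limma voom. It was 161 of 43981 without a filter and 1422 of 14053 with at least 10 counts in every library. With the clock, 7SL and liver covariates it was 0, 132 and 3301 of 24273. Leaving out 1 library gave 0 list genes (10 of 28 fits) to 12 (without CKD-Oxf replicate 4), and 8 without CKD-vehicle replicate 5. Of all genes, 3362 of 24232 passed without CKD-Oxf replicate 4 and 1897 of 24215 without CKD-vehicle replicate 5. For CKD-Oxf against CKD-vehicle, 0 list genes became 10 with limma voom and 3 with the liver score, and leaving out 1 library gave 0 to 1. Of all 24273 genes, 3620 passed there with limma voom and 1727 with the liver score, against 8 in the main fit. For sham-Oxf against sham-vehicle the list count became 1 with DESeq2 and 3 with the 7SL share, and for CKD-Oxf against sham-Oxf 2 with DESeq2. Of all genes, 163 of 26789 and 141 of 24273 passed in the former fits, and 126 of 27635 in the latter. CKD averaged over gavage gave 1 list gene with DESeq2, limma voom or the 7SL share, where 119 of 25109, 125 of 24273 and 45 of 24273 genes passed. For the clock score, 0 members passed within sham-vehicle and 1 within CKD-Oxf, a comparison chosen after seeing the data. The cause of these shifts was not tested. Depth limits Fgf23, Kl and Fgfr4, at up to 30 counts per library.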
